A study of Mus musculus with 12 samples.

Results

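The Reg family encodes small secreted C-type lectin-like proteins. The 7 mouse members measured here were the genes whose only symbol on a probe set began with Reg1, Reg3 or Reg4 or was Reg2, namely Reg1, Reg2, Reg3a, Reg3b, Reg3d, Reg3g and Reg4, of 22154 genes in all. The rule takes a gene's brightest probe set, chosen by its mean over the 12 arrays, but each Reg gene had 1 probe set, so no measured level decided a choice within the family. The family itself was picked with earlier results of these arrays known, among them the low Reg1 and Reg3b in Aire-/- cells, so the values below describe these arrays and do not test an idea formed without them.

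RNA came from medullary thymic epithelial cells (mTECs) of C57BL/6 mice aged 4 weeks, sorted as CD45-negative, Epcam-positive, UEA-binding, Ly51-low cells and split by MHC class II into a high (mTEChi) and a low (mTEClo) fraction. The groups were Aire-/- and Aire+/+ mTEChi and Brg1-/- and Brg1+/+ mTEChi with 2 arrays each, and Aire-/-, Aire+/+, Brg1-/- and Brg1+/+ mTEClo with 1 array each. Aire is the transcriptional regulator of peripheral tissue genes in mTECs, and Brg1, encoded by Smarca4, is a catalytic subunit of SWI/SNF chromatin remodellers. The labels name no promoter or Cre for the loss of Brg1, no deleted part of either gene, and no separate animals behind replicates, so p-values measure only how far these samples vary, and that variation may be technical.

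Reg proteins are known from the exocrine pancreas and the gut. Reg1 and Reg2 are made by pancreatic acinar cells, Reg3b and Reg3g are made by intestinal epithelium, where mouse Reg3g kills Gram-positive bacteria and is induced through MyD88 and IL-22, and Reg4 is found in enteroendocrine and other secretory cells of the gut. In the thymus, mTECs transcribe such peripheral tissue genes and display their products to developing T cells, and Aire is needed for many of them.

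Because 6 of the 7 genes lie side by side and several differed sharply in their response, the upstream sequences of the 5 members the results turn on are shown. In the RefSeq gene table of assembly GRCm38.p6 the order on chromosome 6 was Reg3b, Reg3d, Reg3a, Reg2, Reg1 and Reg3g, with 1 pseudogene among these 7 genes, while Reg4 lies alone on chromosome 3. The lines below give the 250 bases before each annotated start, 5′ to 3′ on the gene's strand, from RefSeq (GRCm38.p6), and capitals mark the TATA motif TATAAA on that strand.
Reg3b, chr6:78370635-78370884, plus strand: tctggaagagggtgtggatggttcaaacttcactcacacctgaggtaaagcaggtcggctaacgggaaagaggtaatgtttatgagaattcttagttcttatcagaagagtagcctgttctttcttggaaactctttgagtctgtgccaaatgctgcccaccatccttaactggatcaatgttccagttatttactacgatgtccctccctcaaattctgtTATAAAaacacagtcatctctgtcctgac
Reg3g, chr6:78468875-78469124, minus strand: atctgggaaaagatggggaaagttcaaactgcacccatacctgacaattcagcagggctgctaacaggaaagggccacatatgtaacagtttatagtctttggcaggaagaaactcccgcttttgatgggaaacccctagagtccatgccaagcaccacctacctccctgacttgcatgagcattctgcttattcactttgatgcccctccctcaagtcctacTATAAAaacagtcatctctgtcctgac
Reg1, chr6:78425733-78425982, plus strand: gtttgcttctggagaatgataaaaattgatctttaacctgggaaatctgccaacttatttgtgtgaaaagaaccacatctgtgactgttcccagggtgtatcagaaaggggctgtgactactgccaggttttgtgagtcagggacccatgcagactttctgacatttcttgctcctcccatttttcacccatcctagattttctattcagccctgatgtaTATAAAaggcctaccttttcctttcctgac
Reg2, chr6:78404905-78405154, plus strand: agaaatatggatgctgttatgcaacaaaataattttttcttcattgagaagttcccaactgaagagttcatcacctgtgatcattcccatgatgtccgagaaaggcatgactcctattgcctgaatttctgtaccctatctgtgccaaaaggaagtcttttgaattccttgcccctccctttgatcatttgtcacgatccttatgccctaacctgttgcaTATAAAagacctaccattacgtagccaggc
Reg4, chr3:98221906-98222155, plus strand: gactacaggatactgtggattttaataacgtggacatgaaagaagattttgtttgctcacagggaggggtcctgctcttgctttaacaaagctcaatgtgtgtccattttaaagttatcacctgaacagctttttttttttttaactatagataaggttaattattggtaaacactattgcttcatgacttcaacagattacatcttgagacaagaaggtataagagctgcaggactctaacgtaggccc

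All 7 members matched a promoter window of 300 bases, 250 before and 50 after the start. TATAAA was found on either strand in 4 of the 7 Reg windows, against 13.6% of all 32851 promoter windows in the table. On the gene's own strand it began at -29 in Reg3b, -27 in Reg3g and -30 in both Reg1 and Reg2, counted from the annotated start, and further matches on the opposite strand lay at -161 in Reg3g and 36 in Reg1. The E-box CACCTG was found on either strand in 5 of 7 Reg windows, against 20.2% of all windows, and the STAT-type motif TTCNNNGAA in 2 of 7, Reg3b and Reg3d, against 8.3%. No match of one motif overlapped a match of another. In a global alignment Reg3b and Reg3g had 69.0% identical columns and an unbroken run of 29 shared bases, the highest values among the 21 pairs, and Reg1 and Reg2 had 58.5%. The other 19 pairs lay between 49.1% and 55.9%. A motif match is a description of these letters and not a binding site.

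**Figure D1:**
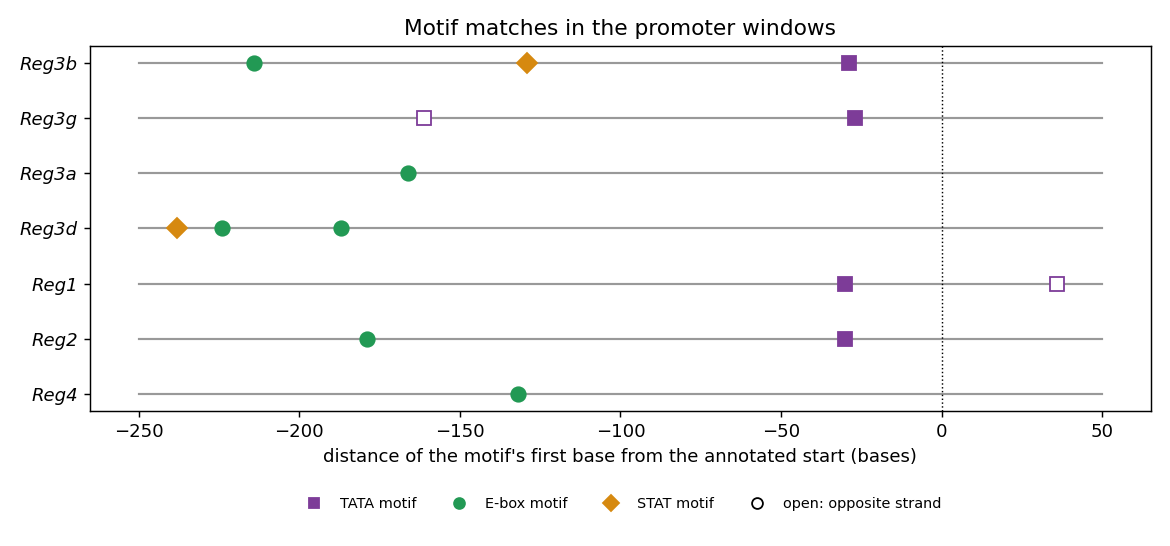
Positions of the TATA, E-box and STAT-type motifs in the promoter windows of the 7 Reg genes, as the distance in bases of the motif's first base from the annotated start. Filled marks lie on the gene's strand and open marks on the opposite strand; the TATA motif of Reg3b, Reg3g, Reg1 and Reg2 lies between -30 and -27.

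The sorted cells carried mTEC markers, and genes used as markers of other cells were read at low and high levels. Epcam read between 8.41 and 9.29 and Krt14 between 10.57 and 12.10 (log2 intensity) on all 12 arrays. Among leukocyte genes Ptprc read 4.79 to 6.11, but Lyz2 read 8.55 to 10.08 and Cd79b 7.54 to 9.06. Among cortical epithelial genes Psmb11 read 5.80 to 6.79, but Ctsl read 8.11 to 10.66 and Tbata 8.64 to 10.40. Among 10 fibroblast and endothelium genes Pdgfra read 3.84 to 4.52 and Col1a1 5.39 to 5.93. The fibroblast gene Dcn, the highest of them on every array, read 9.22 to 10.92. These examples were chosen after their values were seen, and whether such signal came from mTECs or from other cells was not tested. Cd80, which marks mature mTECs, read 8.96 to 10.45 in mTEChi and 6.18 to 6.96 in mTEClo. One array stood apart in thymocyte genes: on Brg1-/- mTEChi replicate 2 the T cell gene Cd3d read 10.12, against 7.32 to 9.03 on the other 7 mTEChi arrays. The Aire probe set read 9.01 and 9.73 on the arrays labelled Aire-/- mTEChi, against 8.04 and 8.80 in Aire+/+ mTEChi, so it was higher under the knockout label, and Smarca4 differed by -0.85 between Brg1-/- and Brg1+/+ mTEChi (SE 0.331, limma adjusted p = 1). The sources used here do not place these probes relative to the deleted parts. The readings therefore check no label, and Aire-/- below means the arrays labelled so. Array medians lay between 5.07 and 5.32 and the brightest probe set read 13.51 to 13.78. Probe sequences were not analysed here, so how far a Reg probe set also reads a related member is not known.

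Loss of Aire was the first comparison, made in mTEChi, and Reg2, Reg3b, Reg1 and Reg4 fell. Reg2, an acinar cell member, read 2.91 and 3.73 on the arrays labelled Aire-/-, against 8.32 and 9.11 in Aire+/+ mTEChi. It fell by 5.40 on the log2 scale (SE 0.376, n = 2 and 2, limma adjusted p = 0.00156). The groups lay far apart. Both low readings were under the 25th percentile of their arrays (4.35 and 4.10), with no detection p in the table, so Reg2 may have been at background there and the difference may be only a lower bound. Reg1, the pancreatic stone protein, read 8.70 and 9.04 on the arrays labelled Aire-/-, against 11.70 and 11.60 in Aire+/+ mTEChi, and fell by 2.78 (SE 0.320, limma adjusted p = 0.0120), or 6.87-fold. Unlike Reg2, Reg1 stayed well above the array medians without Aire.

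Among the Reg3 genes the response was uneven. Reg3b, the pancreatitis-associated protein of pancreas and gut, read 8.78 and 8.79 on the arrays labelled Aire-/-, against 12.40 and 12.25 in Aire+/+ mTEChi, and fell by 3.54 (SE 0.312, limma adjusted p = 0.00353), or 11.6-fold. Its replicates lay close together in both genotypes, with an SD of 0.0071 on the arrays labelled Aire-/- and 0.11 in Aire+/+. Reg3a, related to the human bactericidal lectin REG3A, read 3.39 and 4.47 on the arrays labelled Aire-/-, against 6.36 and 7.50 in Aire+/+ mTEChi. Its difference of -3.0 (SE 0.591) was of the size of that of Reg1, but its replicates were further apart, with an SD of 0.76 on the arrays labelled Aire-/- and 0.81 in Aire+/+, and it did not pass (limma adjusted p = 0.103). Between arrays of the same number it differed by -2.97 and -3.03.

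Reg3g and Reg3d showed small differences, at opposite ends of the intensity scale. Reg3g, the antibacterial lectin, read 12.21 and 12.30 on the arrays labelled Aire-/-, against 12.81 and 12.70 in Aire+/+ mTEChi. The groups did not overlap, but the difference of -0.50 (SE 0.227, limma adjusted p = 1) did not pass, and its 95% interval ran from -1.03 to 0.03. All 12 Reg3g readings lay between 11.85 and 12.81, near the upper end of the arrays' scale. Reg3d, whose hamster relative is the islet neogenesis-associated protein, read 3.65 and 3.31 on the arrays labelled Aire-/-, against 4.41 and 4.65 in Aire+/+ mTEChi, a difference of -1.05 (SE 0.405, limma adjusted p = 0.772). Reg3d was below the array median on all 12 arrays, and with no detection p in the table it is not known whether it was above background. Thus the pair with the most similar promoter windows, Reg3b and Reg3g, differed by -3.54 and -0.50 between the same arrays; the difference between these genes was not tested.

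Reg4, the member on another chromosome, also fell. It read 5.58 and 5.01 on the arrays labelled Aire-/-, against 7.99 and 8.08 in Aire+/+ mTEChi, a difference of -2.74 (SE 0.428, limma adjusted p = 0.0410), or 6.68-fold. In bulk RNA such as this, fewer cells that express a gene and less of its RNA per cell cannot be told apart.

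Over the family, 4 of 7 members were called lower at an adjusted p under 0.05 and 0 higher, where 0.772% of all genes tested were called lower. All 7 differences were below 0, where 40.8% of all genes were. The family median was -2.78, against 0.06 over all genes. In 6 of the 7, all but Reg3d, both arrays labelled Aire-/- lay below all 6 other mTEChi arrays, which held for 5.13% of genes. The calls of Reg1 and Reg4 were lost when any 1 of the 4 Aire line mTEChi arrays was left out, with 2 members called each time, while Reg2 and Reg3b were called in each of these fits. None of 11 thymocyte, 11 dendritic cell, macrophage and B cell, 10 fibroblast and endothelium or 8 cortical genes was called, with medians of 0.12, -0.12, 0.10 and 0.10. The 10 microfold cell genes, of which Gp2 is also in the acinar list and Pglyrp1 in the gut list used below, had a median of -0.96 with 0 called and 8 below 0. Their mean was 6.77 and 7.34 on the arrays labelled Aire-/-, against 7.64 and 8.0 in Aire+/+ mTEChi, and their part in the Reg values was not tested.

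**Figure D2:**
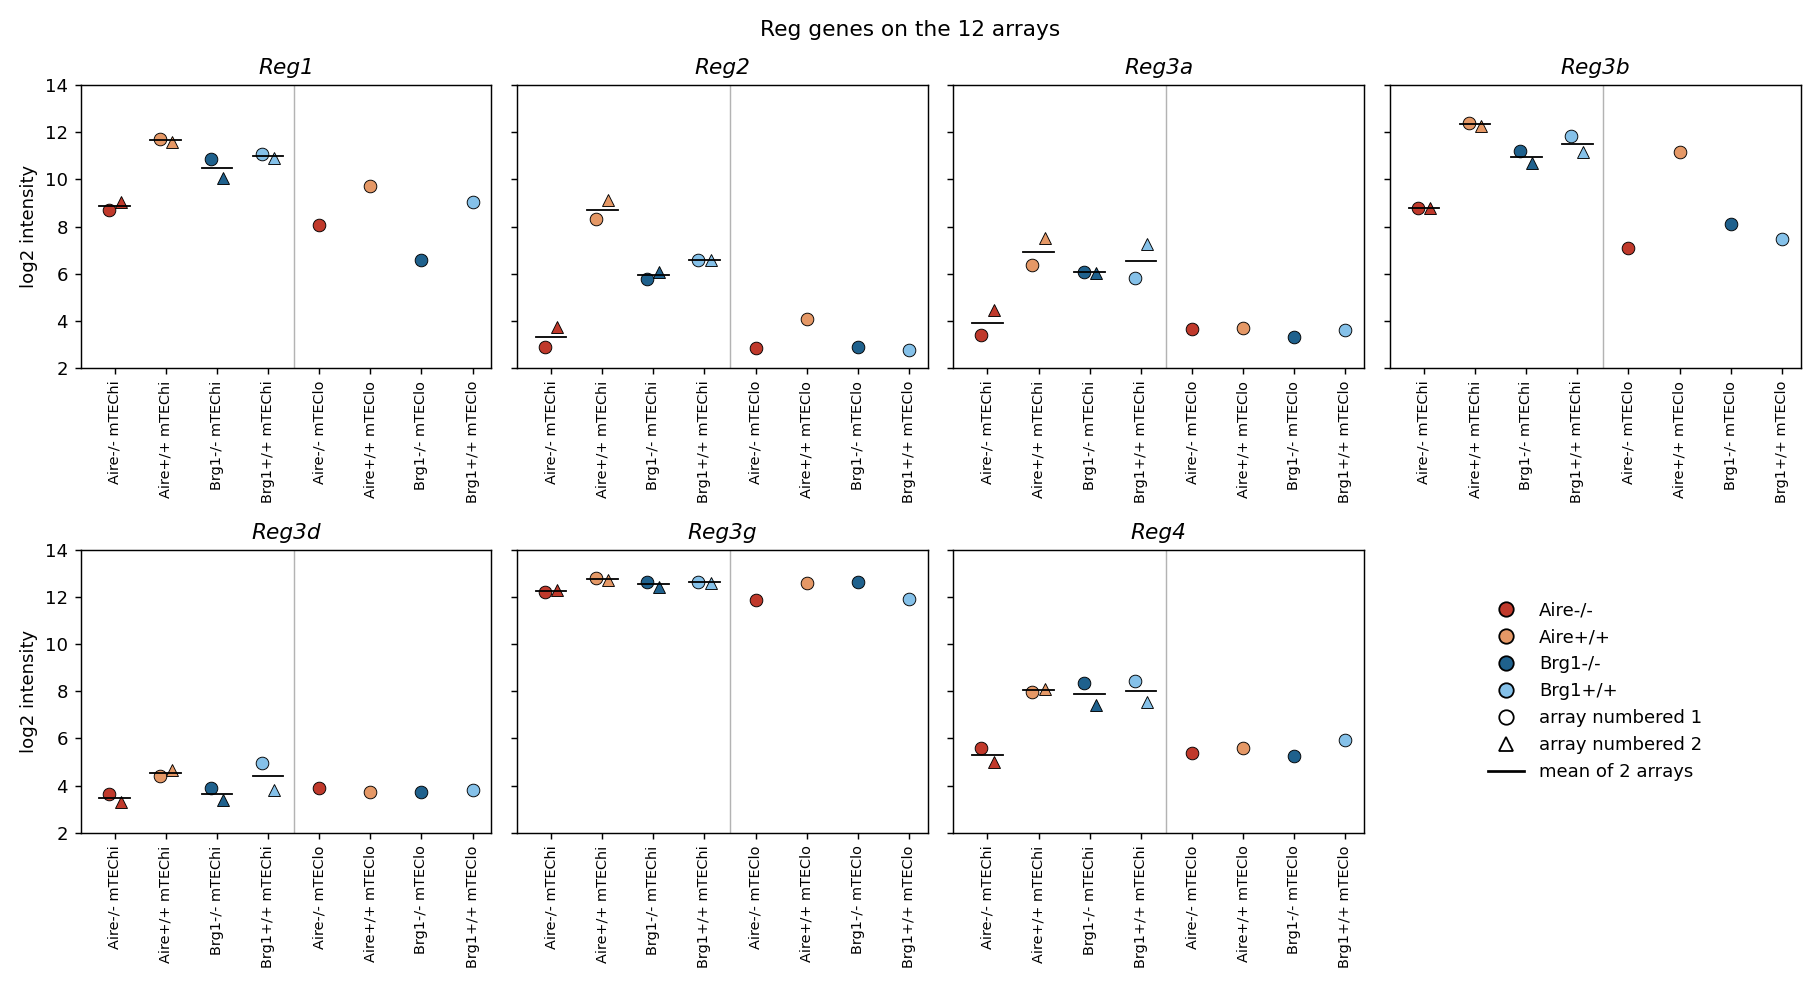
Log2 intensity of the 7 Reg genes on each of the 12 arrays, with groups along the x axis, circles for arrays numbered 1, triangles for arrays numbered 2, and a line at the mean of 2 arrays. In mTEChi the arrays labelled Aire-/- sit below the others for every gene but Reg3d, where 1 Brg1-/- array overlaps, and Reg3g spans only 11.85 to 12.81.

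Loss of Brg1 in mTEChi was compared in the same way. Every member lay slightly lower, where 49.9% of all genes lay below 0, and none was called. Reg2 read 5.76 and 6.09 in Brg1-/- mTEChi, against 6.57 and 6.60 in Brg1+/+ mTEChi (-0.66, SE 0.376, limma adjusted p = 1). Reg1 read 10.87 and 10.05 in Brg1-/- mTEChi, against 11.08 and 10.91 in Brg1+/+ mTEChi (-0.53, SE 0.320). In both pancreatic members the groups did not overlap. Reg3b read 11.19 and 10.70 in Brg1-/- mTEChi, against 11.85 and 11.15 in Brg1+/+ mTEChi (-0.55, SE 0.312), and its groups overlapped.

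The remaining members had 95% intervals that included 0 as well. Reg3a read 6.07 and 6.05 in Brg1-/- mTEChi, against 5.83 and 7.26 in Brg1+/+ mTEChi (-0.48, SE 0.591). Reg3d read 3.88 and 3.40 in Brg1-/- mTEChi, against 4.98 and 3.82 in Brg1+/+ mTEChi (-0.76, SE 0.405). Reg3g read 12.63 and 12.42 in Brg1-/- mTEChi, against 12.63 and 12.60 in Brg1+/+ mTEChi (-0.09, SE 0.227). Reg4 read 8.35 and 7.41 in Brg1-/- mTEChi, against 8.45 and 7.55 in Brg1+/+ mTEChi (-0.12, SE 0.428), and differed more between array numbers than between genotypes. With limma 0 of 7 members and 0% of genes were called, with 0 of 7 members and 301 of 22154 genes at an unadjusted p under 0.05. The family median was -0.53, against 0 over all genes. Both Brg1-/- arrays lay below both Brg1+/+ arrays in 2 of 7 members, against 9.62% of genes. The array with high thymocyte genes, Brg1-/- mTEChi replicate 2, had a mean of 6.71 over the 11 thymocyte genes, against 5.81 on Brg1-/- replicate 1 and 5.94 and 5.86 in Brg1+/+ mTEChi, with Cd3d highest and Rag2 lowest on each of them. It held the lower of the Brg1-/- readings in 6 of the 7 members, all but Reg2; without it the differences were -0.12 for Reg1, -0.82 for Reg2, -0.47 for Reg3a, -0.31 for Reg3b, -0.52 for Reg3d, 0.02 for Reg3g and 0.35 for Reg4.

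**Figure D3:**
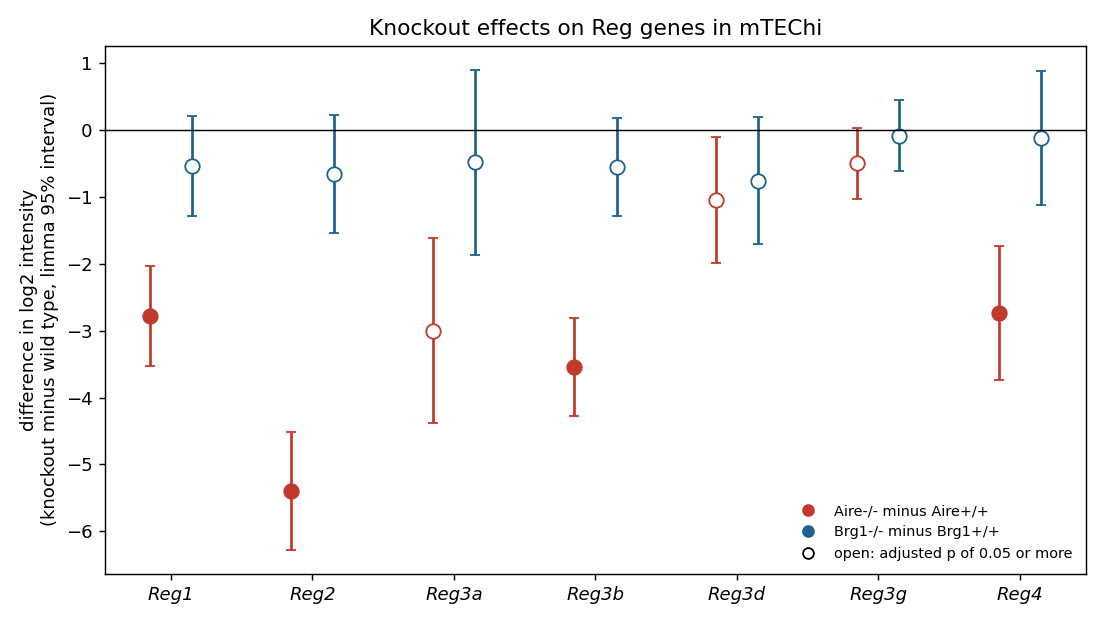
Difference in log2 intensity, knockout minus wild type, in mTEChi for each Reg gene, with limma 95% intervals (n = 2 and 2); filled points had an adjusted p under 0.05. Reg1, Reg2, Reg3b and Reg4 are filled for Aire, none is filled for Brg1, and the Brg1 intervals all include 0.

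The effects of the knockouts were then set against each other within mTEChi, by testing how far the effect of Brg1 lay from that of Aire (Brg1 minus Aire). Reg2 passed, with a Brg1 effect of -0.66 and an Aire effect of -5.40, a difference of 4.74 (SE 0.532, limma adjusted p = 0.0312). This call was lost with quantile normalization (adjusted p = 0.0572). It was also lost when any 1 mTEChi array other than Aire-/- replicate 2 was left out, with adjusted p between 0.0678 and 0.185. Reg3b differed by 2.98 (SE 0.442, adjusted p = 0.0842), Reg4 by 2.62 (SE 0.605, adjusted p = 0.372), Reg3a by 2.51 (SE 0.836) and Reg1 by 2.24 (SE 0.453, adjusted p = 0.236), none of them called. Of the 7 members 1 was called higher, against 0.135% of genes, and the family median was 2.51, against -0.05 over all genes.

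The wild types of the lines were not alike in level for every member. Between Aire+/+ and Brg1+/+ mTEChi, Reg2 differed by 2.13, with readings of 8.32 and 9.11 in the Aire line and 6.57 and 6.60 in the Brg1 line (SE 0.376, limma adjusted p = 1, unadjusted p = 0.000607). Both Aire+/+ arrays lay above both Brg1+/+ arrays in 4 of 7 members (Reg1, Reg2, Reg3b and Reg3g), against 8.98% of genes, with 0 members and 0% of genes called. The Aire effect on Reg2 is thus measured from a higher start than the Brg1 effect, and this comparison was chosen after the values were seen.

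The third comparison set mTEChi against mTEClo among wild-type arrays and averaged the Aire line and Brg1 line differences. Its mTEChi arrays are the same wild-type arrays that the knockouts were set against. Each mTEClo group had 1 array, so the SEs and p-values of this comparison hold no measure of how mTEClo arrays vary. Here 5 of 7 members were called higher in mTEChi, against 1.93% of genes. Reg2 read 8.32 and 9.11 in Aire+/+ and 6.57 and 6.60 in Brg1+/+ mTEChi, against 4.10 and 2.75 in Aire+/+ and Brg1+/+ mTEClo, and was higher by 4.22 (SE 0.326, 4 and 2 arrays, limma adjusted p = 0.00229). Reg3a, at 5.83 to 7.50 in mTEChi, against 3.71 and 3.61 in mTEClo, was higher by 3.08 (SE 0.512, adjusted p = 0.0256). Reg4, at 7.55 to 8.45 in mTEChi, against 5.59 and 5.93 in mTEClo, was higher by 2.26 (SE 0.370, adjusted p = 0.0242). None of these groups overlapped. Reg2 and Reg3a lay under the 25th percentile of both mTEClo arrays (4.28 and 4.32), so either may have been at background there and its difference may be a lower bound.

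Reg1 and Reg3b were also called, with a less even picture over the lines. Reg1 read 10.91 to 11.70 in wild-type mTEChi, against 9.71 and 9.04 in mTEClo, and was higher by 1.95 (SE 0.277, adjusted p = 0.0141). Reg3b read 11.15 to 12.40 in wild-type mTEChi, against 11.15 in Aire+/+ mTEClo and 7.49 in Brg1+/+ mTEClo. Its averaged difference of 2.59 (SE 0.270, adjusted p = 0.00543) joined unlike lines: it was 1.17 in the Aire line (adjusted p = 0.369) and 4.01 in the Brg1 line (adjusted p = 0.0155). Reg3g was higher by 0.42 (SE 0.196, adjusted p = 0.436) and Reg3d by 0.68 (SE 0.351, adjusted p = 0.494), neither of them called.

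Both wild-type mTEClo arrays lay below all 4 wild-type mTEChi arrays in 5 of 7 members (Reg1, Reg2, Reg3a, Reg3g and Reg4), against 11.4% of genes. These are not the same 5 as those called, which held Reg3b and not Reg3g. Over all genes 567 were called with both lines, 130 within the Aire line alone and 80 within the Brg1 line alone. Of the members 1, Reg2, was called within the Aire line alone, and 2, Reg2 and Reg3b, within the Brg1 line alone. Without Aire+/+ mTEChi replicate 2 the number called was 3. Markers of other cells moved in the same comparison. Of thymocyte genes 9 of 11 lay above 0 (median 0.44) with 0 called. The same held for 9 of 11 dendritic cell, macrophage and B cell genes (median 0.32). Of fibroblast and endothelium genes 8 of 10 lay below 0 (median -0.39) with 0 called. The 8 cortical genes went both ways, with a median of 0.24 and 3 below 0. Called higher were 2 of them, Ccl25 (1.61, SE 0.282) and Tbata (1.17, SE 0.226). Cortical Ctsl read 8.61 to 9.05 in wild-type mTEChi, against 10.66 and 9.82 in mTEClo. The median over all genes was -0.10, with 60.6% of genes below 0. The part of these markers in the Reg differences was not tested. All mTEClo arrays are numbered 1, and with arrays numbered 1 only, the differences were 4.02 for Reg2, 2.44 for Reg3a, 2.46 for Reg4, 2.01 for Reg1 and 2.81 for Reg3b.

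The gap between mTEChi and mTEClo was small for several members on the arrays labelled Aire-/-. Among arrays numbered 1, Reg2 was 0.05 higher in mTEChi than in mTEClo of the arrays labelled Aire-/-, against 4.22 in Aire+/+. Reg3a differed by -0.26 on the arrays labelled Aire-/-, against 2.65 in Aire+/+, and Reg4 by 0.21, against 2.40. For these 3 members the mTEChi array labelled Aire-/- and numbered 1 read close to the mTEClo arrays. Its Reg2 (2.91) and Reg3a (3.39) lay under its 25th percentile (4.35). In mTEClo both genes also lay under that percentile, on the Aire-/- (4.37) and Aire+/+ (4.28) arrays. Both may thus have been at background, where a gap or an effect in mTEClo could not be seen. On Aire-/- mTEChi replicate 2 Reg2 read 3.73, Reg3a 4.47 and Reg4 5.01, against 2.86, 3.65 and 5.37 in Aire-/- mTEClo. Reg1 kept a gap of 0.63 on the arrays labelled Aire-/-, against 1.99 in Aire+/+, and Reg3b one of 1.67, against 1.25. In the test of the Aire effect in mTEChi minus that in mTEClo, Reg2 differed by -4.16 (SE 0.651), Reg3a by -2.94 (SE 1.02), Reg4 by -2.52 (SE 0.741), Reg1 by -1.14 (SE 0.555) and Reg3b by 0.50 (SE 0.541). With limma 0 members and 0% of genes passed, the lowest adjusted p of a member being 0.246 for Reg2, with 3 members and 547 genes at an unadjusted p under 0.05. The SEs and p-values of that test also hold no measure of how mTEClo arrays vary. On the Brg1-/- arrays the gap was 2.85 for Reg2, 2.76 for Reg3a and 3.10 for Reg4.

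**Figure D4:**
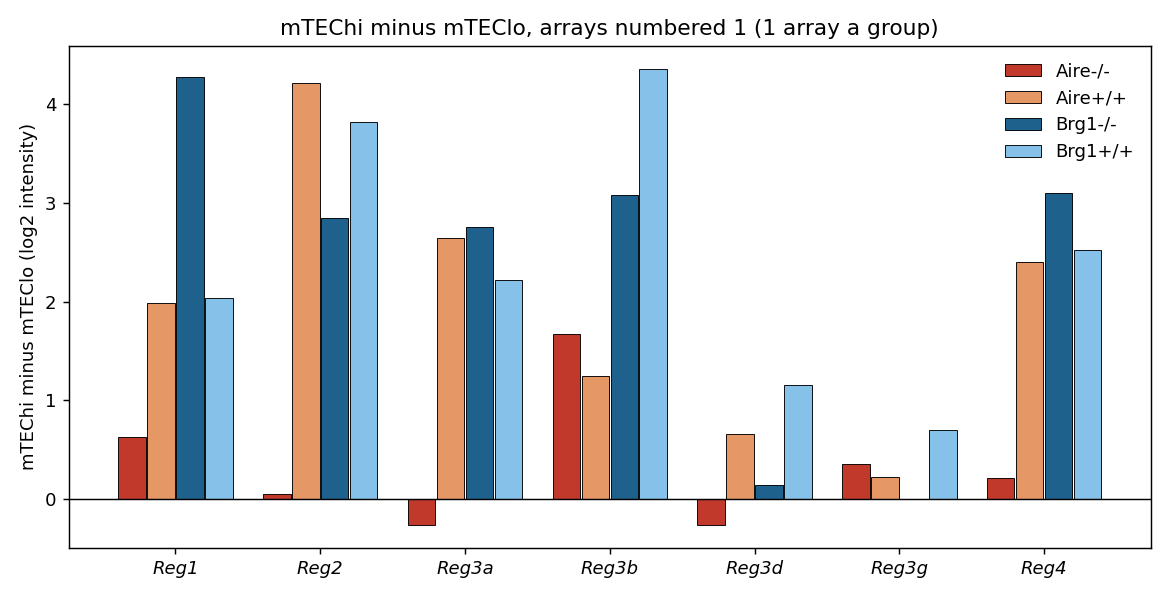
Log2 intensity in mTEChi minus that in mTEClo for each Reg gene and genotype, from the arrays numbered 1 (1 array a group, so no error can be shown). For Reg2, Reg3a and Reg4 the bars of the arrays labelled Aire-/- lie between -0.26 and 0.21 while the bars of the other genotypes lie between 2.22 and 4.22, and for Reg3g no bar exceeds 0.70.

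In mTEClo itself each group had 1 array, whose spread was taken from the mTEChi groups, so the SEs and p-values here hold no measure of how mTEClo arrays vary. Reg3b read 7.11 on the array labelled Aire-/- mTEClo, against 11.15 in Aire+/+ mTEClo, a difference of -4.04 (SE 0.442, limma adjusted p = 0.143). It read 8.11 in Brg1-/- mTEClo, against 7.49 in Brg1+/+ mTEClo (0.62, SE 0.442). The Aire+/+ mTEClo array thus stood apart from the other 3, which read 7.11 to 8.11. Its margin of 3.04 over the next mTEClo array was the highest of all 22154 genes, so the large difference in the Aire line rests on that 1 array.

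Other members followed different orders in mTEClo. Reg1 read 8.07 on the array labelled Aire-/-, against 9.71 in Aire+/+ (-1.64, SE 0.453), and 6.59 in Brg1-/- mTEClo, against 9.04 in Brg1+/+ (-2.45, SE 0.453). The Brg1-/- mTEClo reading was the lowest of Reg1 on any of the 12 arrays. Reg2 read 2.86 on the array labelled Aire-/-, against 4.10 in Aire+/+, and 2.91 in Brg1-/-, against 2.75 in Brg1+/+. Reg3g read 11.85 on the array labelled Aire-/-, against 12.59 in Aire+/+, and 12.63 in Brg1-/-, against 11.93 in Brg1+/+. Reg3a lay between 3.31 and 3.71, Reg3d between 3.74 and 3.91 and Reg4 between 5.25 and 5.93 on the 4 mTEClo arrays, with the knockout array below its wild type in both lines for Reg3a and Reg4 and in the Brg1 line alone for Reg3d. With limma 0 members and 0% of genes were called for either genotype, with 2 members and 298 genes at an unadjusted p under 0.05 for Aire and 1 member and 382 genes for Brg1. The Aire+/+ minus Brg1+/+ difference in mTEClo was 3.66 for Reg3b (SE 0.442, adjusted p = 1), with 0% of genes called.

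The order of the groups was not the same for each member. In rising order Reg2 stood lowest in 3 mTEClo arrays (2.75 to 2.91) and on the arrays labelled Aire-/- mTEChi (3.32 ± 0.58, SD, n = 2), which met at 2.91, then in Aire+/+ mTEClo, Brg1-/- mTEChi (5.92 ± 0.23), Brg1+/+ mTEChi (6.58 ± 0.021) and Aire+/+ mTEChi (8.71 ± 0.56). Reg3b stood lowest in 3 mTEClo arrays, then on the arrays labelled Aire-/- mTEChi (8.79 ± 0.0071), in Brg1-/- mTEChi (10.95 ± 0.35), Aire+/+ mTEClo and Brg1+/+ mTEChi (11.50 ± 0.49), which overlapped each other, and in Aire+/+ mTEChi (12.32 ± 0.11). Reg1 stood, again in rising order, in Brg1-/- mTEClo, Aire-/- mTEClo, the arrays labelled Aire-/- mTEChi (8.87 ± 0.24), Brg1+/+ mTEClo, Aire+/+ mTEClo, Brg1-/- mTEChi (10.46 ± 0.58), Brg1+/+ mTEChi (10.99 ± 0.12) and Aire+/+ mTEChi (11.65 ± 0.071), where Aire-/- mTEChi and Brg1+/+ mTEClo met at 9.04. Reg3a and Reg4 fell into a low set, the 4 mTEClo arrays and the arrays labelled Aire-/- mTEChi, and a high set, the other 6 mTEChi arrays. In the low set the range of the arrays labelled Aire-/- mTEChi held some of the mTEClo readings but not all. In the high set Brg1+/+ mTEChi overlapped both Aire+/+ and Brg1-/- mTEChi for both genes. Reg3g stood lowest in Aire-/- mTEClo (11.85) and Brg1+/+ mTEClo (11.93), then on the arrays labelled Aire-/- mTEChi (12.21 and 12.30). It stood highest in Aire+/+ mTEChi (12.70 and 12.81). Between these lay Brg1-/- mTEChi (12.42 and 12.63), Brg1+/+ mTEChi (12.60 and 12.63), Aire+/+ mTEClo (12.59) and Brg1-/- mTEClo (12.63), with some overlap. For Reg3d, Brg1+/+ mTEChi (4.98 and 3.82) overlapped both Aire+/+ mTEChi (4.41 and 4.65) and Brg1-/- mTEChi (3.88 and 3.40).

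Over the 12 arrays the members with a wide range moved together. Pearson's r lay between 0.809 and 0.935 for the 10 pairs among Reg1, Reg2, Reg3a, Reg3b and Reg4, and between 0.420 and 0.848 for pairs with Reg3d or Reg3g. These arrays share groups, so r describes the pattern and has no p. The genes most like each member, 3 for each member that spanned at least 2 units, came from several tissues. For Reg1 they were the intestinal fatty acid-binding protein Fabp2 (r = 0.966), the kallikrein Klk1b5 (0.958) and the trypsin Try4 (0.941). For Reg2 they were the pancreatic elastase Cela3b (0.951), the milk casein Csn1s1 (0.949) and Oosp1 (0.946), an oocyte secreted protein. For Reg3a they were the mast cell chymase Cma1 (0.974), Gdf3 (0.974) and the homeobox gene Hoxb13 (0.971). For Reg3b they were the pancreatic trypsin inhibitor Spink1 (0.947), Klk1b8 (0.943) and Try4 (0.921). For Reg4 they were the protease gene Prss29 (0.988), the seminal vesicle protein Svs4 (0.986) and the neuropeptide Vip (0.984).

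The protein-coding genes next to the Reg genes were not called in these comparisons. On chromosome 6 Ctnna2 and Lrrtm1 lie on one side of the cluster and Gm20594 and Lrrtm4 on the other, and on chromosome 3 Notch2, Adam30 and Phgdh lie near Reg4. These 7 genes spanned 0.38 to 1.61 over the 12 arrays, a range that holds the span of Reg3g (0.96) and nearly reaches that of Reg3d (1.67), while the other 5 members spanned 3.44 to 6.36. None of the neighbours was called in any of the 7 comparisons planned, with a lowest limma adjusted p of 0.588. Few of the 22154 genes were called: 176 for Aire in mTEChi, 30 for Brg1 minus Aire and 567 for mTEChi against mTEClo. In the other planned comparisons 0 were, so the lack of calls does not set the neighbours apart. Ctnna2 differed by 0.24 (SE 0.232) and Lrrtm1 by 0.39 (SE 0.357) between the arrays labelled Aire-/- and Aire+/+ in mTEChi.

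Lists of genes known to act with, or to be expressed beside, the Reg genes were chosen with earlier results known and are given as counts. Of 16 genes of the receptors and signalling that induce or bind Reg proteins (the IL-22, IL-17 and IL-6 receptors, MyD88 and STAT3 among their pathways), 0 were called for Aire in mTEChi (median 0.03, against 0.06 over all genes) and 0 for Brg1. Il6st, the shared receptor subunit gp130, was lower in wild-type mTEChi than in mTEClo (-1.15, SE 0.216, limma adjusted p = 0.0411). It was the only one of the 16 called there, where 140 of 22154 genes were called lower. Of 19 other secreted antimicrobial and mucosal proteins of the gut, 5 were called lower and 0 higher for Aire in mTEChi, with a median of -1.11, where 0.772% of all genes were called lower. Among them were the goblet cell trefoil factor Tff3 (-2.87, SE 0.271, adjusted p = 0.00475), the resistin-like Retnlb (-3.42, SE 0.418), the cathelicidin Camp (-2.44, SE 0.341) and the pentraxin Mptx2 (-3.59, SE 0.585). In wild-type mTEChi against mTEClo 7 of the 19 were higher, where 1.93% of all genes were, among them the angiogenin Ang4 (2.98, SE 0.250) and Camp (3.42, SE 0.296).

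Against the same 0.772% of all genes, 3 of 22 pancreatic acinar genes were called lower for Aire in mTEChi, with a median of -0.84: the zymogen granule protein Sycn (-4.22, SE 0.308), the elastase Cela3b (-3.19, SE 0.264) and the lectin Zg16 (-2.80, SE 0.460), which the gut list also holds. Of 16 enteroendocrine genes 3 were lower (median -0.37), the peptides Nts (-4.58, SE 0.376), Pyy (-2.72, SE 0.317) and Sst (-2.85, SE 0.425). Of 16 enterocyte genes 1 was lower (median -0.54), Fabp2 (-2.49, SE 0.382). For Brg1 in mTEChi 0 members of these 4 tissue lists were called, with medians of -0.13, 0.04, 0.04 and -0.13.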

How the data were processed

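RNA of sorted mTECs was measured on 12 biotin-labelled Affymetrix arrays. The deposited table gives an intensity on a linear scale per probe set. RMA and the Affymetrix programs Transcriptome Analysis Console and Expression Console stand in the submitters' processing notes without versions or order, and the sources do not say if the arrays were normalized in 1 run. Each deposited intensity is 2 raised to a number with 2 decimals, and log2 of it was used with no pseudocount or filter. Of 33732 probe sets 23491 had 1 gene symbol in the platform annotation, 1811 several and 8430 none, and the brightest probe set stood for a gene. limma 3.58.1 in R 4.3.3 fitted 8 group means over 12 arrays (lmFit, eBayes; 4 residual and 3.46 prior degrees of freedom), two-sided, with Benjamini-Hochberg adjustment over all 22154 genes; SE is the moderated one. Lone mTEClo arrays were assumed to vary like mTEChi. The number of arrays limits precision. Named genes were the 7 members, the targeted genes, the 3 genes with the highest r for each wide-ranging member (predicted genes, clones and receptor families left out), up to 4 called genes per list and the neighbours. Promoters were aligned with Biopython 1.88. Members and lists were chosen with earlier results of these data known; comparisons between wild types, and between knockouts in mTEClo, were added after the values were seen. Alternatives were a replicate block, other normalizations, probe set rules, filters and leaving out mTEChi arrays.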

Additional observations from a re-analysis of the deposited data

Results flagged for a closer look

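Results were set apart for a closer look where the effects of the knockouts differed. In mTEChi, Reg2 differed by 4.74 on the log2 scale between the Brg1 effect (-0.66) and the Aire effect (-5.40) in limma's test of the difference (adjusted p = 0.0312). In mTEClo, with 1 array per genotype and line, the Brg1 and Aire differences had opposite signs in 4 of the 7 members, a share not set against that of all genes. For Reg3b they were 0.62 and -4.04, a difference of 4.66 (SE 0.625, adjusted p = 1), for Reg3g 0.70 and -0.74 (1.44, SE 0.454), for Reg2 0.16 and -1.24 (1.40, SE 0.752) and for Reg3d -0.08 and 0.16 (-0.24, SE 0.811). None of these 4 passed with limma (0 of 22154 genes, 326 at an unadjusted p under 0.05, where Reg3b and Reg3g were among them). The Reg3b value rests on the Aire+/+ mTEClo array, which read 11.15. Reg2 (2.75 to 4.10) and Reg3d (3.74 to 3.91) lay under the 25th percentile of every mTEClo array (4.27 to 4.37), so either may have been at background. How many of all genes had opposite signs was not counted, so the number of members does not set the family apart. Groups held at most 2 arrays, so no search for an array far from its own group was made.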

How the results depend on the processing

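Of the alternatives, median centring, the mean of all probe sets, the mTEChi arrays alone, an intensity trend and a filter on dim genes left the number of Reg genes called at the value reported in each comparison they were run for. Each Reg gene had 1 probe set, so the mean of all probe sets left its values as they were. Lone mTEClo arrays add no spread, so the mTEChi arrays alone repeated the main fit. Neither of these alternatives is thus a separate check of the Reg calls. The same-numbered mTEChi arrays deviated together over all genes (r between 0.552 and 0.657 for the 6 pairs of groups), but each group has only 2 numbers and the labels do not say what a number marks, so the pairing was not used. With a replicate block within each line or common to both lines, 5 members were lower for Aire in mTEChi (Reg3a was added, with limma adjusted p = 0.00475 and 0.00231; 531 and 569 genes in all, against 176 without the block), 4 were higher in the Brg1 minus Aire difference (Reg1, Reg2, Reg3b and Reg4; 201 and 228 genes, against 30), 1 was called for Aire in mTEClo (Reg3b; 3 and 7 genes, against 0), 1 for the Aire effect in mTEChi minus mTEClo (Reg2; 63 and 66 genes, against 0), and 5 for mTEChi against mTEClo (1534 and 1757 genes, against 567). The Brg1 comparisons had 0 members called in every alternative run.

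Quantile normalization left 0 members in the Brg1 minus Aire difference (31 genes) and 3 genes for Aire in mTEClo. The dim filter, with 9772 genes tested, gave 48 genes in the Brg1 minus Aire difference. Only mTEChi arrays were left out in turn. The ranges that follow therefore do not show how far mTEChi against mTEClo rests on a lone mTEClo array. Leaving out 1 array at a time gave 2 to 4 members for Aire in mTEChi (53 to 184 genes), 0 to 1 in the Brg1 minus Aire difference (4 to 28 genes) and 3 to 5 for mTEChi against mTEClo (307 to 470 genes). For the Brg1 comparison in mTEChi, 1 gene was called without Brg1+/+ replicate 2. In the Aire line alone 1 member and 130 genes were called for mTEChi against mTEClo, and in the Brg1 line alone 2 members and 80 genes, alternatives chosen after seeing the data that use fewer arrays.

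Signs turned only in differences that were not called. Leaving out 1 mTEChi array at a time gave a range of -1.20 to 0.23 for Reg3a, -0.20 to 0.015 for Reg3g and -0.59 to 0.35 for Reg4 for Brg1 in mTEChi, -0.29 to 0.87 for Reg3d in the Brg1 minus Aire difference, and, for Aire+/+ minus Brg1+/+ in mTEChi, -0.33 to 1.10 for Reg3a, -0.45 to 0.71 for Reg3d and -0.415 to 0.485 for Reg4. On arrays numbered 1 the values were 0.24 for Reg3a (Brg1), -0.34 for Reg3d (Brg1 minus Aire), and -0.57 for Reg3d and -0.46 for Reg4 (Aire+/+ minus Brg1+/+). With the replicate block within lines these last were -0.255 for Reg3d and -0.305 for Reg4. The cause was not tested. Groups of 1 or 2 arrays, the unknown background of dim members such as Reg3d and the bright end of the scale for Reg3g limit what these values can show.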

Other observations

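Genes of other tissues that were most like a Reg member over the 12 arrays were also compared between the arrays labelled Aire-/- and Aire+/+ in mTEChi; they were chosen by their likeness on these same arrays, so the values are a description. Called lower were Oosp1 (-4.43), Svs4 (-4.33), Prss29 (-3.88), Cela3b (-3.19), Cma1 (-2.84), Vip (-2.69), Csn1s1 (-2.53) and Fabp2 (-2.50), while Klk1b8 (-2.37), Try4 (-1.83), Klk1b5 (-1.36), Gdf3 (-1.30), Spink1 (-0.83) and Hoxb13 (-0.81) were not called. The genes like Reg4 (Prss29, Svs4 and Vip) were thus all called, and of those like Reg3b (Spink1, Klk1b8 and Try4) none was.

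In wild-type mTEChi against mTEClo, limma called 3 of 22 acinar, 2 of 16 enteroendocrine and 3 of 16 enterocyte genes higher, where 1.93% of all genes were. Of these lists 6, 3 and 4 genes lay below 0, where 60.6% of all genes did. Those called were the peptide genes Nts (3.12, SE 0.326) and Pyy (2.33, SE 0.274), the acinar genes Sycn (2.86, SE 0.266), Cela3b (2.67, SE 0.229) and Zg16 (2.12, SE 0.398), and the enterocyte genes Fabp2 (2.33, SE 0.331), Apoa4 (2.15, SE 0.398) and the intestinal transcription factor Cdx1 (1.22, SE 0.205). The mature mTEC genes Cd80 (3.05, SE 0.377) and Cd86 (2.45, SE 0.338) were higher in the same comparison.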
